A study of Arabidopsis thaliana with 16 samples.

Results

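Among Arabidopsis thaliana genes that the array annotation lists only by a locus tag, 37 were far brighter after 24 h under either shade light than in white light, in wild-type and in phyA mutant seedlings alike. They were chosen from group means of log2 intensity. A gene was kept when shade minus white and strong shade minus white were both at least 2.5, about 5.66-fold, in each genotype. It also had to differ between genotypes by less than 1 in size in each light, and between strong shade and shade in the wild type by less than 1. Of 11799 locus-tag genes, each represented by its brightest probe set, 50 met the 4 rises, 39 of these met the genotype limit and 37 met every limit, which is 0.314%. The 37 belong to 13356 genes with a probe set for 1 gene, among 22746 probe sets in all. Because these values chose the genes, the differences from white light, between genotypes in a light and between the lights in the wild type are given below as a description with no test.

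RNA was measured in whole seedlings on 16 Affymetrix arrays. The wild type was Col-0 (WT), and the mutant was phyA-211, a null phyA allele in the Col-0 background, written phyA below. All seedlings first grew for 5 days under continuous white light, so the white-light groups of both genotypes share this history with the shade groups. For the last 24 h they stayed in white light at about 45 µmol m-2 s-1 or moved under LEDs. Shade gave 13 µmol of red, 3.5 of blue and 21 of far-red light per square metre and second (red over far-red 0.7). Strong shade gave 3 of red, 3.5 of blue and 30 of far-red light (red over far-red 0.1). White light has 2 arrays per genotype and each shade light has 3 per genotype. The mutant is a single allele, and the white and shade lights differed in light source and in the amount of light as well as in ratio, so these cannot be told apart in any difference from white light. The submitters call the replicates biological without saying how they were grown apart, so a p-value below speaks only for the spread among these arrays. No probe set is named for PHYA, so the mutant label has no check of its own here. In whole seedlings, fewer cells of a type and less RNA per cell cannot be told apart.

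Plants read shade through phytochromes, photoreceptors that switch between forms under red and far-red light. Phytochrome B is switched off when far-red light rises, which frees growth-promoting transcription factors, whereas phytochrome A signals in far-red light and can restrain that growth. Light also feeds the seedling through photosynthesis. When sugar runs low, the SnRK1 kinase switches on a set of dark-inducible genes for breakdown of amino acids and other reserves.

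Across probe sets, arrays of the same group correlated at 0.979 to 0.995. The array labelled as replicate 3 of phyA shade had correlations of 0.986 or less with its own group and of 0.993 or more with the first and the second of phyA strong shade. Likewise, replicate 3 of phyA strong shade correlated at no more than 0.983 with its own group and at 0.991 or more with replicates 1 and 2 of phyA shade. The phyA step between the shade lights and the genotype counts are therefore also given without both.

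**Figure D1:**
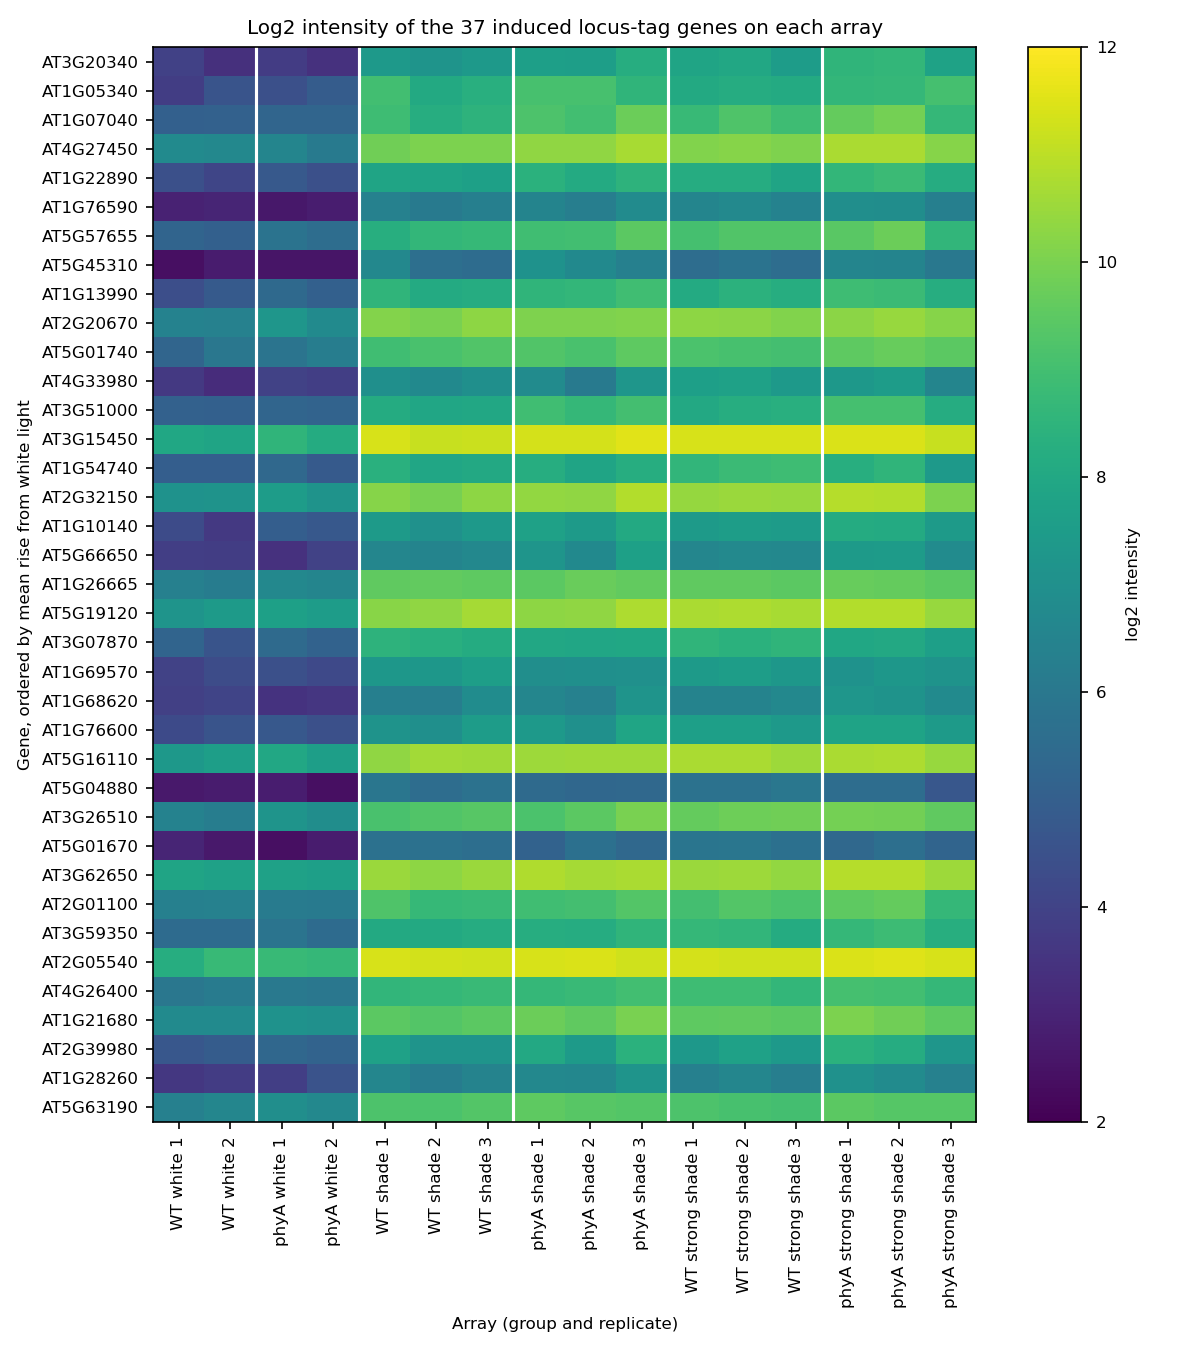
Log2 intensity (colour) of the 37 genes (rows, ordered by mean rise from white light) on the 16 arrays (columns, grouped by genotype and light). In each row the 4 white-light arrays are darker than the 12 shade and strong shade arrays.

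The mean of the 4 differences from white light, called the mean rise below, ran from 2.65 to 4.18 with a median of 3.13, or 6.28-fold to 18.1-fold with a median of 8.78-fold. Taken by comparison, the 37 genes had a median difference of 3.08 in WT shade, 3.31 in WT strong shade, 2.99 in phyA shade and 3.08 in phyA strong shade, while the median of all 22746 probe sets lay between -0.02 and 0.04. The limma standard error of a single such difference ran from 0.109 to 0.309 over the 37 genes. All 37 genes had every shade or strong shade array above every white-light array, which was so for 15.9% of all probe sets. The rule asks for large rises of group means, so this separation follows largely from the choice of genes. The gap between the lowest of the 12 shade arrays and the highest of the 4 white-light arrays was 1.64 for AT1G28260 and 3.23 for AT3G20340, the ends of the range.

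The mean log2 intensity over the 37 genes was 5.23 and 5.26 on the WT white-light arrays, and 5.51 and 5.39 on those of phyA. In shade it was 8.43, 8.24 and 8.39 on the WT arrays and 8.56, 8.46 and 8.79 on the phyA arrays. In strong shade the WT arrays stood at 8.52, 8.61 and 8.48 and the phyA arrays at 8.84, 8.88 and 8.36. White light was thus apart from both shade lights by about as much on every array, and the third phyA arrays were the highest of phyA shade and the lowest of phyA strong shade.

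**Figure D2:**
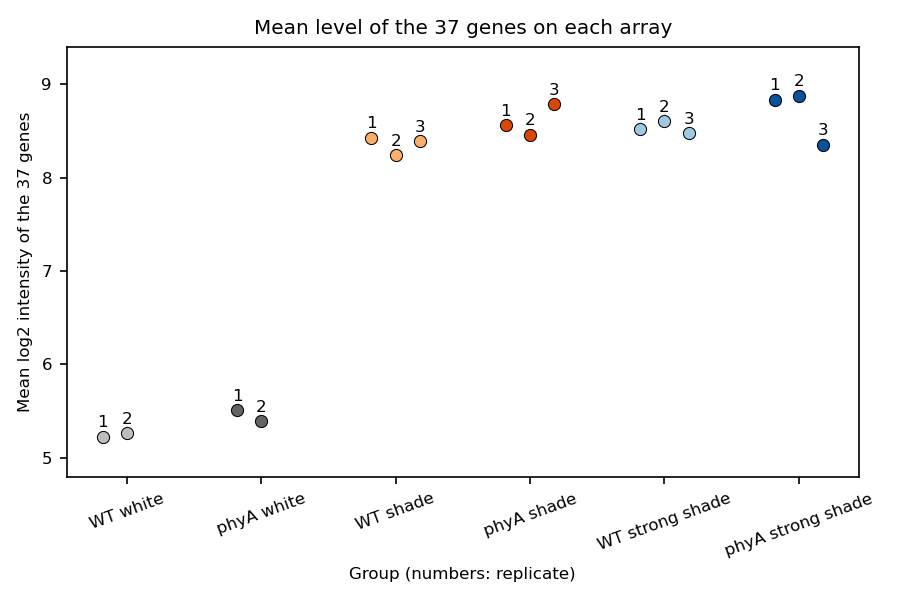
Mean log2 intensity of the 37 genes (vertical axis) on each array, by group, with the replicate number above each point. The white-light arrays lie between 5.23 and 5.51 and all others between 8.24 and 8.88.

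The roles named below are background knowledge of these Arabidopsis loci, since the tables used here list the genes by tag alone; 22 are described and 15 are left without a role. A low-energy pair comes first because one of them is a standard marker of that state. AT3G15450 and AT4G27450 encode proteins with YGL and LRDR motifs, and AT3G15450 is known as a gene that sugar represses and darkness induces. AT3G15450 stood at 7.94 and 7.84 in WT white light and at 8.53 and 8.17 in phyA white light. It reached 11.38, 11.17 and 11.20 in WT shade, 11.34, 11.34 and 11.54 in phyA shade, 11.39, 11.39 and 11.41 in WT strong shade, and 11.43, 11.43 and 11.15 in phyA strong shade. Its shade levels lay close together in all 4 groups, and its differences from white light were 3.35 and 3.50 in WT and 3.06 and 2.98 in phyA, each ± 0.132 (SE).

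AT4G27450 differed more between the genotypes. It stood at 6.79 and 6.66 in WT white light and at 6.57 and 6.09 in phyA. In shade it read 9.84, 10.02 and 10.04 in WT and 10.33, 10.33 and 10.70 in phyA, and in strong shade 10.12, 10.18 and 10.07 in WT and 10.73, 10.72 and 10.19 in phyA. Its phyA arrays lay below the WT arrays in white light and above them in both shade lights, without overlap, so that the difference from white light was 3.24 and 3.40 in WT against 4.13 and 4.22 in phyA (SE 0.179).

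The list of dark and low-energy genes, of which AT3G15450 is a member, had 4 of its 20 entries measured. The other 3, AKINBETA1, MCCA and PPDK, rose in each of the 4 comparisons with white light (limma, adjusted p under 0.05), with medians of 3.11, 3.67, 3.61 and 3.65 for WT shade, WT strong shade, phyA shade and phyA strong shade. Over all probe sets, 16.9%, 18%, 20.7% and 21.7% were called higher in the same order. Of 18 genes of amino acid catabolism, 9 were measured and all 9 rose in each comparison, with medians of 2.95, 3.39, 3.68 and 3.64. MCCA is in both lists, so they are not separate sets. AKINBETA1, MCCA and PPDK, and IVD and MCCB of the catabolism list, themselves met the limits used to choose the locus-tag genes. Both lists were also chosen with earlier results of these data known. These calls are therefore a description and not an independent check. The part of low energy in the rises was not tested. IVD, which encodes an enzyme of leucine breakdown, rose by 4.42 and 4.85 in WT and by 4.78 and 4.77 in phyA. D2HGDH, which encodes a dehydrogenase that passes electrons to the same mitochondrial chain, rose by 0.74 and 0.79 in WT, and it lost both WT calls without WT white 2 (limma adjusted p = 0.131 and 0.0889).

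Of 12 autophagy genes 10 were measured, and 8, 8, 10 and 10 rose in the same order of comparisons (9 in WT shade when the third phyA arrays were left out), with medians of 1.13, 1.12, 1.29 and 1.25. Of 19 shade-induced genes 4 were measured, and 4, 3, 4 and 4 rose, with medians of 1.71, 0.98, 2.68 and 2.59. They were spread widely: IAA29, an auxin response gene, rose by 4.91 in WT shade and 4.28 in phyA shade, YUC2 by 0.94 and 0.65, and HAT2 by 1.76 and 1.46. FHL rose by 1.66 in WT shade and 3.90 in phyA shade, and was the only measured gene of this list that rose more in phyA there. For strong shade, FHL stood at 0.55 in WT and 3.90 in phyA, HAT2 at 1.18 and 1.28, IAA29 at 3.59 and 3.97, and YUC2 at 0.78 and 0.54. YUC2, an auxin synthesis gene, lost its call in phyA strong shade without phyA white 1 (limma adjusted p = 0.0501). The single measured gene of 10 in the senescence list, SAG101, stood at 0.10 and 0.25 in WT and at 0.30 and 0.33 in phyA, called in phyA strong shade only without the third phyA arrays.

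Of 5 root marker genes 4 were measured, and 3 fell in WT shade and 4 in each other comparison with white light (limma; 4 in WT shade too without the third phyA arrays). Over all probe sets, 19.6% were called lower in WT shade, 21.2% in WT strong shade, 20.1% in phyA shade and 20.3% in phyA strong shade. Their summed linear intensity ran from 2239 to 2601 over the white-light arrays of both genotypes, from 1410 to 1856 in WT shade, from 960 to 1335 in phyA shade, from 1192 to 1393 in WT strong shade and from 819 to 1801 in phyA strong shade. The part of root tissue in the differences of the 37 genes was not tested. In WT strong shade, AT2G25980 lost its call without WT white 1, WT strong shade 1 or WT strong shade 2 and with median centring (limma adjusted p from 0.0514 to 0.301), and its difference then ran from -0.33 to -0.56. In WT shade it was no longer called when WT white 1 was left out (limma adjusted p = 0.241). EXPA7, an expansin gene of root hairs, lost its call in both lights without WT white 1 (adjusted p = 0.0564 and 0.0586), and PYK10, a root beta-glucosidase gene, in strong shade without WT white 2 (adjusted p = 0.097). The remaining marker, EXPA18, lost no call under any alternative. It differed from white light by -1.59 in WT shade, -1.85 in WT strong shade, -1.64 in phyA shade and -1.71 in phyA strong shade.

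Regulators of transcription and RNA made up 6 of the 37, with mean rises from 2.65 to 3.65. AT1G69570, a DOF zinc finger factor of the cycling DOF family that acts in photoperiodic timing, stood at 3.96 and 4.31 in WT white light and at 4.44 and 4.20 in phyA. In shade it read 7.29, 7.28 and 7.60 in WT against 6.95, 6.96 and 7.03 in phyA, and in strong shade 7.44, 7.58 and 7.31 against 7.11, 7.29 and 7.14. The WT and phyA arrays overlapped in white light and did not in either shade light, where phyA was lower, and its differences from white light were 3.25 and 3.31 in WT and 2.66 and 2.86 in phyA (SE 0.14).

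AT4G33980, a cold- and clock-regulated gene, had the largest step between the shade lights in WT. It stood at 3.66 and 3.27 in WT white light, at 7.00, 6.73 and 6.99 in WT shade and at 7.64, 7.73 and 7.38 in WT strong shade. In phyA it read 3.97 and 3.85 in white light, 6.83, 6.13 and 7.24 in shade and 7.33, 7.52 and 6.55 in strong shade. The shade and strong shade arrays were apart in WT, by a mean of 0.68, and overlapped in phyA. The phyA overlap depended on the arrays labelled replicate 3. Without those of both lights the phyA arrays were apart, and the phyA step was 0.94 instead of 0.40. COR27, its relative, met the same rule with differences from white light of 3.94 and 4.50 in WT and 3.43 and 3.62 in phyA.

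AT1G76590 encodes a PLATZ zinc finger protein, and AT1G76600 is the next gene on chromosome 1 in the reference table, the only adjacent pair among the 37. AT1G76590 was dim in white light, at 2.96 and 3.05 in WT and 2.66 and 2.80 in phyA, and reached 6.40, 6.09 and 6.31 in WT shade and 6.50, 6.27 and 6.81 in phyA shade. In strong shade it read 6.57, 6.69 and 6.45 in WT and 6.94, 6.91 and 6.33 in phyA. AT1G76600 stood at 4.25 and 4.60 in WT white light and at 7.13, 7.00 and 7.52 in WT shade, and its 4 differences from white light ran from 2.79 to 3.15, against 3.26 to 4.00 for AT1G76590. Both genes of the pair were thus higher in the shade lights in both genotypes, the first by more.

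AT1G26665, which encodes a Mediator subunit of the Med10 family, had the smallest spread within groups of all 37 genes (SD 0.0850) and differences of 3.28, 3.26, 2.99 and 3.01 for WT shade, WT strong shade, phyA shade and phyA strong shade. AT1G54740, a FANTASTIC FOUR-like gene of a family that acts on the shoot meristem, read 8.60, 8.81 and 8.90 in WT strong shade against 8.26, 8.53 and 7.39 in phyA, so the genotypes did not overlap there, with phyA minus WT at -0.71, or -0.37 without the third phyA array. In shade, the same gene read 8.36, 7.93 and 8.03 in WT and 8.22, 7.86 and 8.21 in phyA, which overlapped. AT5G63190, an MA3-domain gene that regulates translation, had the lowest mean rise of the 37, at 2.65.

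**Figure D3:**
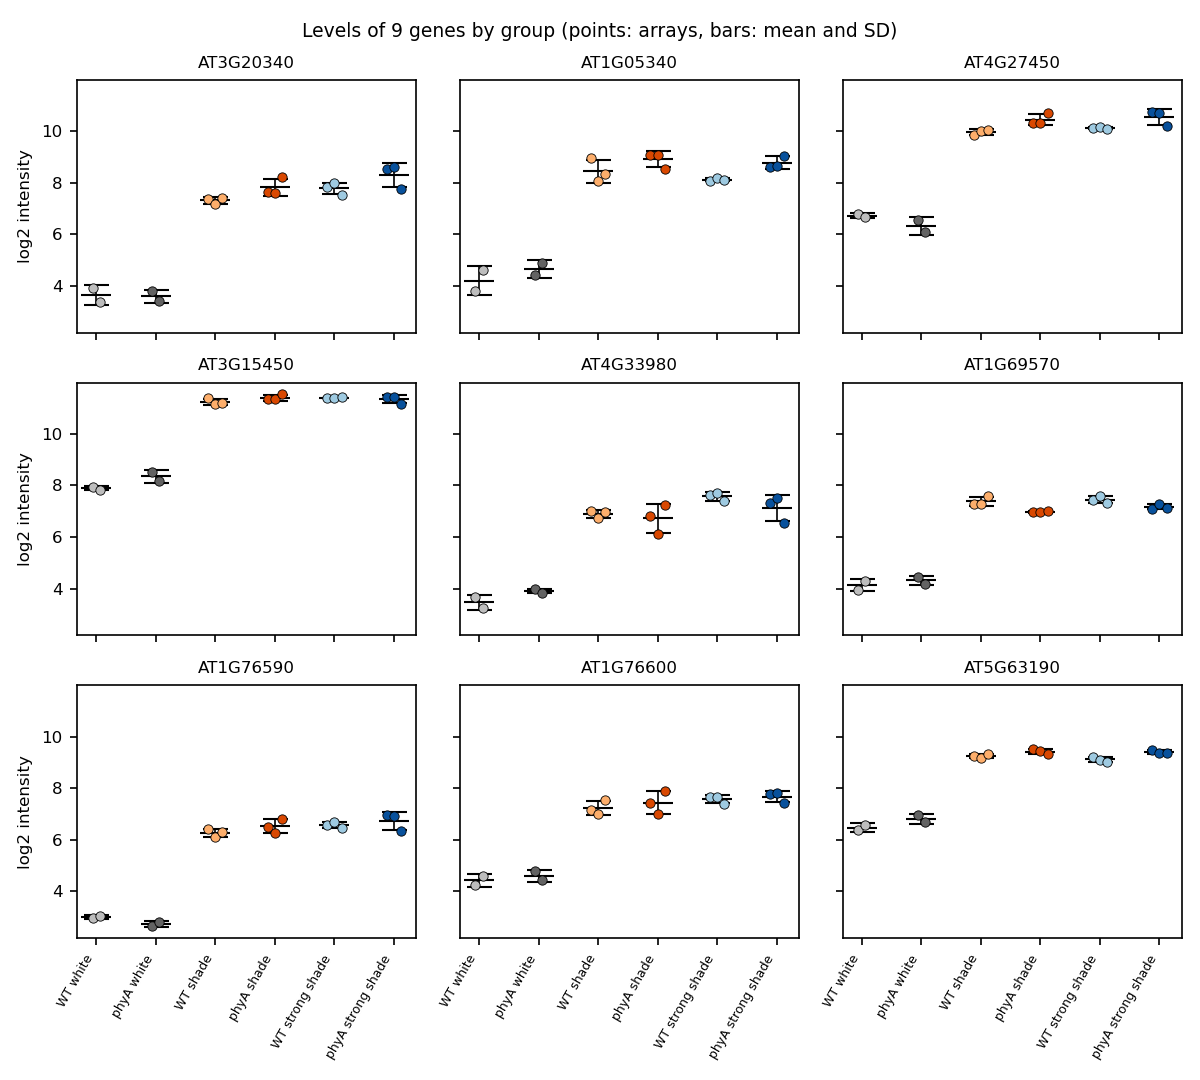
Log2 intensity (vertical axis) of 9 of the genes in the 6 groups, with 1 point per array and bars for the mean and SD (n = 2 in white light, n = 3 elsewhere). In all 9 panels the white-light points lie below every shade and strong shade point.

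Genes of signalling and protein turnover had mean rises from 2.76 to 3.12. AT3G07870 encodes an F-box protein, the part of a ubiquitin ligase that picks its targets. It stood at 5.21 and 4.58 in WT white light and 5.45 and 5.16 in phyA. In shade it read 8.45, 8.29 and 8.16 in WT and 7.99, 7.93 and 7.96 in phyA, and in strong shade 8.55, 8.40 and 8.53 in WT and 7.97, 8.05 and 7.66 in phyA. In both shade lights its phyA arrays lay below the WT arrays without overlap, with phyA minus WT at -0.34 and -0.60, and in white light they overlapped. AT5G19120, an aspartyl protease gene, AT3G26510, a PB1-domain gene, AT3G59350, a protein kinase gene, and AT4G26400, a RING-type zinc finger gene, had genotype differences between -0.07 and 0.67 over the 3 lights.

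The 6 genes of metabolic enzymes had mean rises from 2.66 to 3.60. AT5G57655, of the xylose isomerase family, stood at 5.24 and 5.07 in WT white light and 5.81 and 5.59 in phyA. It reached 8.27, 8.61 and 8.72 in WT shade, 9.04, 9.28 and 9.30 in WT strong shade, 8.94, 8.98 and 9.48 in phyA shade and 9.43, 9.75 and 8.60 in phyA strong shade. Strong shade lay above shade on every WT array, by a mean of 0.68, and the phyA arrays of these lights overlapped. The overlap in phyA came through the arrays labelled replicate 3. Without those of both lights the phyA arrays did not overlap, and the phyA step was 0.63 instead of 0.13.

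AT3G51000, of the alpha/beta hydrolases, had the largest genotype difference in shade among the 37. It read 5.11 and 5.08 in WT white light and 5.25 and 5.19 in phyA. In shade it read 8.17, 7.93 and 7.98 in WT and 8.92, 8.67 and 9.03 in phyA. In strong shade it read 8.04, 8.24 and 8.29 in WT and 9.06, 9.04 and 8.19 in phyA. The genotypes were apart in shade, phyA being higher by a mean of 0.85, and overlapped in strong shade through the third phyA array. AT1G68620, another alpha/beta hydrolase gene, differed from white light by 2.52 and 2.56 in WT and by 3.21 and 3.54 in phyA (SE 0.216). AT2G32150, a haloacid dehalogenase-like hydrolase gene, and AT5G01670, an aldo-keto reductase gene, had mean rises of 3.21 and 2.87. AT2G39980, an acyltransferase gene, had a mean rise of 2.66 with an SD within groups of 0.39.

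Among genes of membranes and walls, AT1G05340, which encodes a small protein with a cysteine-rich transmembrane module, had a mean rise of 4.13. It stood at 3.81 and 4.60 in WT white light and 4.43 and 4.91 in phyA. It read 8.95, 8.08 and 8.33 in WT shade, 9.10, 9.09 and 8.56 in phyA shade, 8.09, 8.19 and 8.10 in WT strong shade and 8.60, 8.67 and 9.06 in phyA strong shade. In this gene the third phyA arrays were the lowest of shade and the highest of strong shade, opposite to the mean of the 37. AT5G66650, of the calcium uniporter family, differed from white light by 2.74 and 2.80 in WT and 3.52 and 3.55 in phyA, and AT2G05540, which encodes a glycine-rich protein, by 2.86, 2.82, 2.68 and 2.75.

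The 15 genes left without a role had mean rises from 2.65 to 4.18. AT3G20340 had the highest mean rise of all 37. It stood at 3.93 and 3.39 in WT white light and 3.79 and 3.43 in phyA, at 7.39, 7.17 and 7.41 in WT shade and 7.65, 7.62 and 8.22 in phyA shade, and at 7.84, 7.98 and 7.53 in WT strong shade and 8.55, 8.62 and 7.76 in phyA strong shade. Its differences from white light were 3.66, 4.12, 4.22 and 4.70 (SE 0.255). Its phyA arrays lay above the WT arrays in shade and overlapped them in strong shade through the third phyA array. The phyA minus WT difference was 0.50 in shade and 0.53 in strong shade. Without the third phyA arrays it was 0.31 and 0.80.

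AT1G07040 had a mean rise of 3.87 and the widest spread within groups of the 37 (SD 0.40). It read 5.08 and 5.10 in WT white light and 5.27 and 5.27 in phyA, then 8.91, 8.24 and 8.48 in WT shade and 9.19, 8.96 and 9.77 in phyA shade. In strong shade it read 8.73, 9.24 and 8.91 in WT and 9.63, 9.91 and 8.64 in phyA, where the third array was the lowest of all 6. The spread lay in the shade lights, and the 4 white-light arrays lay between 5.08 and 5.27.

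AT2G20670 had similar shade levels in both genotypes and a higher white-light level in phyA. It stood at 6.44 and 6.38 in WT white light and at 7.24 and 6.79 in phyA. In strong shade it read 10.30, 10.26 and 10.12 in WT and 10.27, 10.45 and 10.19 in phyA, which overlapped, and in shade it read up to 10.29 in WT and 10.08, 10.08 and 10.11 in phyA. Its difference from white light was accordingly 3.74 and 3.82 in WT and 3.08 and 3.29 in phyA (SE 0.137).

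AT5G45310, the dimmest of the 37 in white light, showed the reverse. It stood at 2.40 and 2.75 in WT white light and 2.56 and 2.58 in phyA. In shade it read 6.67, 5.66 and 5.53 in WT and 7.11, 6.75 and 6.36 in phyA, and in strong shade 5.57, 5.79 and 5.57 in WT and 6.57, 6.53 and 5.99 in phyA. The genotypes overlapped in shade through the first WT array, and in strong shade all phyA arrays lay above the WT arrays. AT1G22890 had differences from white light of 3.51, 3.81, 3.70 and 3.93, AT1G13990 of 3.66, 3.63, 3.46 and 3.41, and AT5G01740 of 3.49, 3.48, 3.26 and 3.50, in the order WT shade, WT strong shade, phyA shade and phyA strong shade.

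The remaining genes without a role, AT1G10140, AT5G16110, AT5G04880, AT3G62650, AT2G01100, AT1G21680 and AT1G28260, and AT1G76600 described above, had mean rises from 2.65 for AT1G28260 to 3.19 for AT1G10140. AT1G10140 had the largest genotype difference in white light, 0.90, and smaller ones of 0.44 and 0.40 in shade and strong shade (0.27 and 0.62 without the third phyA arrays). AT5G04880 is a transcribed pseudogene in the reference table, and the other 36 are protein-coding. It was dim in white light, at 2.67 and 2.74 in WT and 2.81 and 2.41 in phyA, and reached 5.92, 5.57 and 5.75 in WT shade against 5.47, 5.33 and 5.37 in phyA shade.

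White-light means over both genotypes ran from 2.57 for AT5G45310 to 8.58 for AT2G05540, with 9 genes under 4, where RMA compresses differences, so the fold changes of those genes may be understated. Across the 37 genes, which share arrays and were all chosen for a large rise, white-light mean and mean rise had a Pearson correlation of -0.28 and a Spearman correlation of -0.26. The genes lay on all 5 chromosomes, 13 on chromosome 1, 5 on chromosome 2, 7 on chromosome 3, 3 on chromosome 4 and 9 on chromosome 5. No gene of the 37 had a further probe set for it alone, so each value rests on a single probe set.

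The rule set a limit on the size of a genotype difference but not on its direction. In white light phyA was above WT in 26 of the 37 genes (median 0.22), in shade in 30 (median 0.24) and in strong shade in 28 (median 0.15), beside 41.9%, 53.0% and 54.2% of all probe sets. Without the third phyA arrays the medians were 0.12 in shade (28 genes above WT) and 0.38 in strong shade (31 genes), so the order of the shade lights depended on these arrays. AT5G04880 and AT5G01670 were below WT in all 3 lights with and without them. The comparisons with white light in a genotype share that genotype's 2 white-light arrays.

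The phyA and WT arrays did not overlap in some genes in each light. In white light phyA was above WT without overlap in 18 genes and below in 4, beside 14.6% and 25.1% of all probe sets, with only 2 arrays per genotype. In shade this held for 13 genes above and 3 below, beside 10.4% and 10.3%, and in strong shade for 9 above and 5 below, beside 14.6% and 12.1%. Without the third phyA arrays, which leaves 2 against 3, it held in shade for 17 above and 3 below, beside 16.3% and 15.1%, and in strong shade for 29 above and 5 below, beside 24.3% and 17.2%. AT3G07870, AT1G69570 and AT5G04880 were the genes below WT without overlap in both shade lights. AT4G27450, AT5G66650 and AT3G62650 were those above it in both with all arrays.

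**Figure D4:**
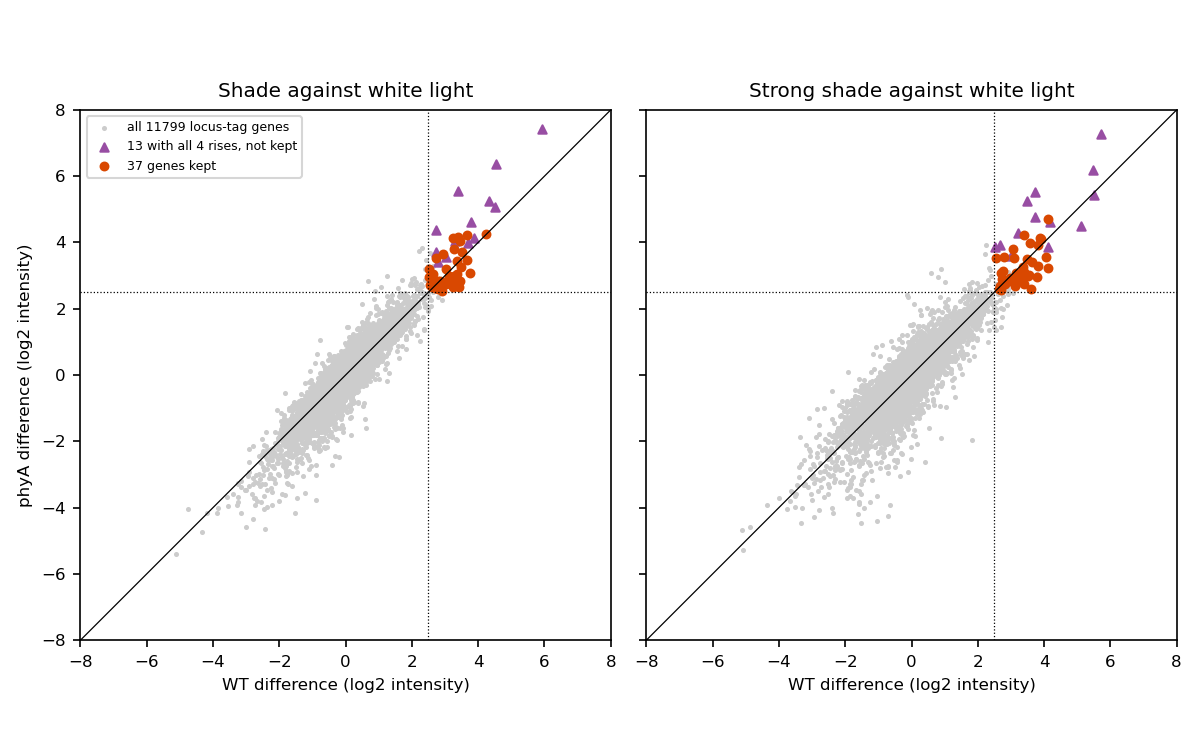
Difference from white light in WT (horizontal axis) and phyA (vertical axis), in log2 intensity, for shade and strong shade; grey points are all 11799 locus-tag genes, circles the 37 genes and triangles the 13 with all 4 rises that were not kept. The 37 lie near the diagonal above the dotted lines at 2.5, and in shade all 13 triangles lie above the diagonal.

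The 13 genes with all 4 rises that were not kept lay mostly on the phyA side. Of these, 9 exceeded the genotype limit alone, 2 the limit on the WT step alone and 2 both, and 0 exceeded the genotype limit in white light. Just outside the genotype limit lay AT4G33150, which encodes the bifunctional enzyme of lysine breakdown, with a largest genotype difference of 1.06 in size. Just inside were AT1G10140 at 0.90, AT3G51000 at 0.85 and AT5G45310 at 0.79. Near the limit of 2.5, the lowest rise was 2.52 for AT1G68620, AT2G01100 and AT3G26510 inside, and 2.49 for AT1G05840, 2.46 for AT2G40420 and 2.41 for AT1G01770 outside. For the WT step, AT4G33980 and AT5G57655 at 0.68 and AT1G54740 at 0.66 were the nearest inside, and AT1G72060 at 1.02 and AT1G19540 at 1.42 exceeded this limit alone. AT3G45730 at 1.01 and AT2G15880 at 1.08 exceeded it and the genotype limit as well.

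Genes with a true symbol were not members, and 12 of 1557 met the same limits, 0.771%, with mean rises from 2.65 to 5.28. The 6 highest were HIS1-3, a linker histone gene, at 5.28, MCCA of leucine breakdown at 5.02, IVD at 4.70, ATL8, a RING finger gene, at 4.40, SIS, a salt-induced gene, at 4.15, and COR27 at 3.87. HIS1-3, MCCA, IVD and ATL8 thus exceeded the 4.18 of AT3G20340, the highest of the 37.

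The step from shade to strong shade in phyA is the comparison that the rule did not use, although the limits on the WT step and on the genotype differences bound its size. Over the 37 genes it ran from -0.38 for AT5G45310 to 0.48 for AT3G20340, with a median of 0.08 beside 0.01 for all probe sets, and 26 were above 0. Its standard error ran from 0.0975 to 0.276. Limma called 0 of the 37 (smallest adjusted p = 0.998; 0 at unadjusted p under 0.05), against a background of 0% of all probe sets called in either direction (852 at unadjusted p under 0.05). In WT the same step ran from -0.33 for AT1G05340 to 0.68 for AT4G33980, with a median of 0.15 beside 0.01 for all probe sets, and 29 were above 0.

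The third phyA arrays moved with this result. The third array of phyA shade was the highest of its group in 27 of the 37 genes and the third of phyA strong shade the lowest in 35, both in 26, beside 39.9%, 41.7% and 23.2% of all probe sets. Without both arrays, a choice made because they had been seen to stand apart and which therefore partly fixes the outcome, the phyA step had a median of 0.36 beside 0.03 for all probe sets, and 34 of 37 genes were above 0. Limma then called 5 of the 37 higher and 0 lower, against 1.36% and 2.48% of all probe sets. AT3G20340 rose by 0.95 ± 0.187 (SE; adjusted p = 0.0101), AT4G33980 by 0.94 ± 0.205 (adjusted p = 0.0175), AT1G68620 by 0.70 ± 0.172 (adjusted p = 0.0353), AT1G76590 by 0.54 ± 0.138 (adjusted p = 0.0433) and AT5G57655 by 0.63 ± 0.165 (adjusted p = 0.0459), all by limma with 2 arrays per phyA shade group. In this setting 6 of the 37 had a step under 0.1 in size, AT1G26665, AT2G05540, AT5G63190, AT3G07870, AT3G15450 and AT5G01670, from -0.04 for AT5G63190 to 0.09 for AT5G01670.

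**Figure D5:**
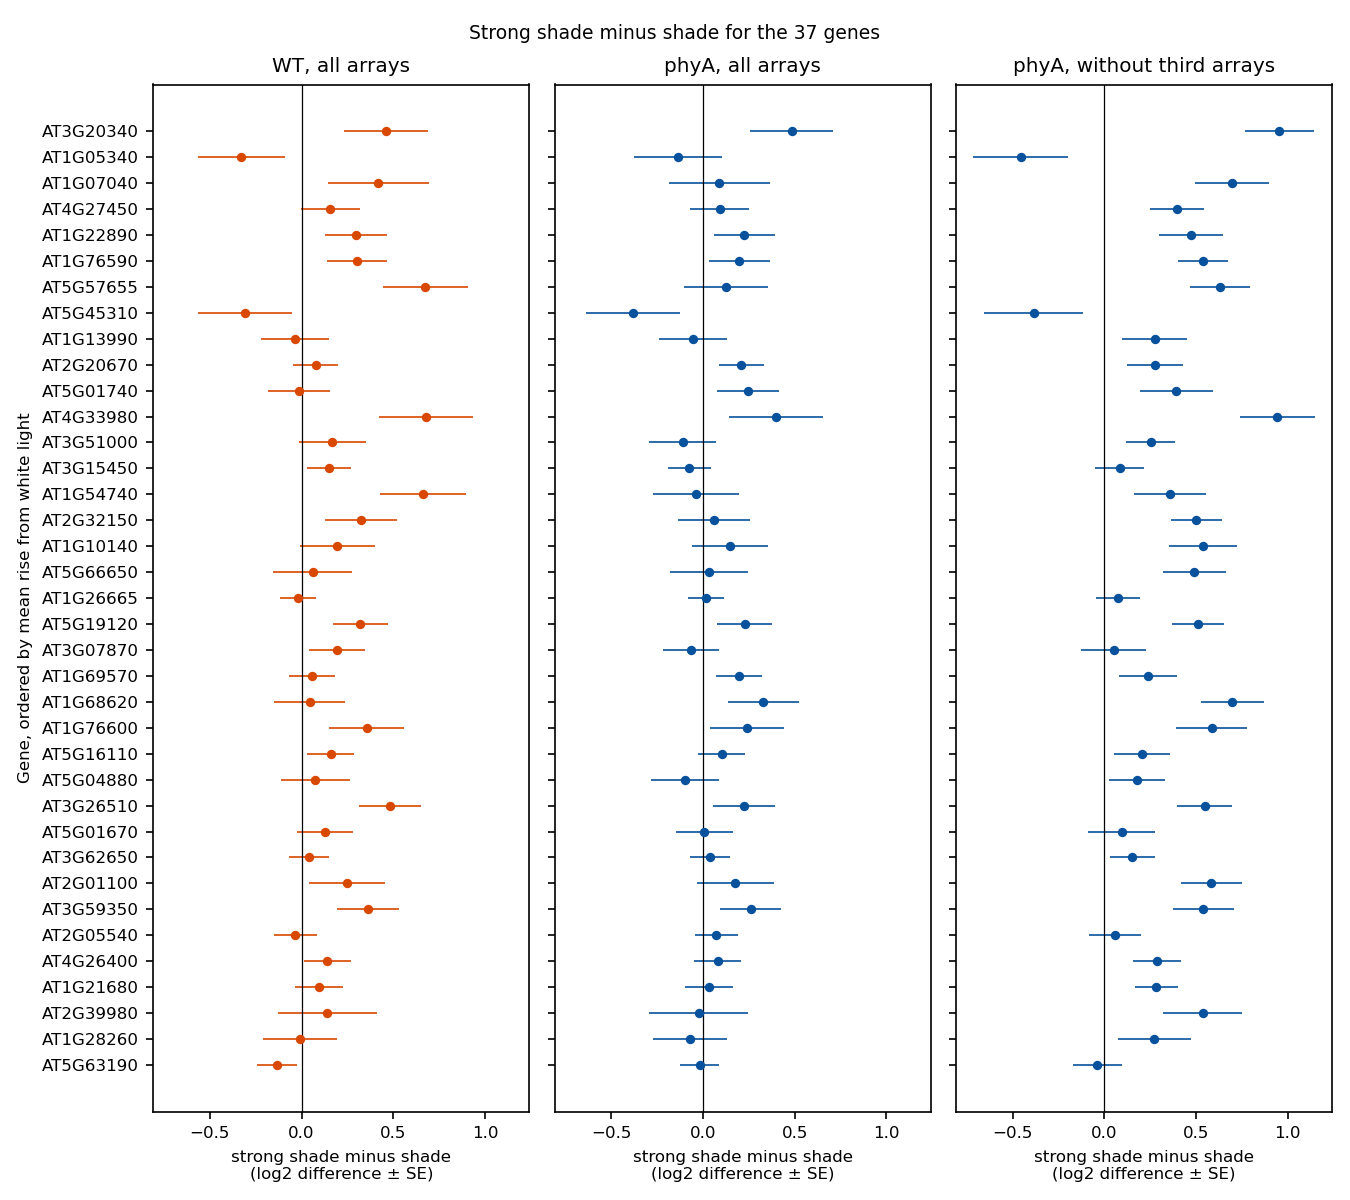
Strong shade minus shade (horizontal axis, log2 difference with its standard error) for the 37 genes in WT, in phyA with all arrays and in phyA without the third arrays. The median is 0.15 in WT, 0.08 in phyA with all arrays and 0.36 without the third arrays.

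Membership itself depended little on any one array for most of the genes. Of the 37, 25 met the rule in every fit that dropped 1 of the 16 arrays, and the number of genes that met it then ran from 31 to 41. AT2G39980 dropped out in 4 of these settings and AT1G28260 in 3. Without both of these phyA arrays, replicate 3 of each shade light, 34 of the 37 remained, and AT1G28260, AT2G39980 and AT3G26510 dropped out.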

How the data were processed

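Total RNA of whole seedlings was amplified to biotin-labelled cRNA and hybridised to 16 arrays, per the labels' protocols. The deposited values are linear intensity per probe set, made by the authors with RMA in affy, per the submitters' processing notes; software versions and genome build were not given in the sources read for this work. Their log2 was taken with no pseudocount or further scaling. The number of arrays limits the precision.

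Of 22746 probe sets, 13513 had 1 gene listed, 503 several and 8730 none. Names came from the platform annotation and a TAIR10.1 gene table, in which all 37 genes matched. Start positions in that table gave the order of genes along each chromosome, and sequences were not used here.

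Limma 3.58.1 in R 4.3.3 fitted 1 mean per group to all 16 arrays (10 residual degrees of freedom), with eBayes and Benjamini-Hochberg adjustment over all probe sets; calls had adjusted p under 0.05. The fit was tested on simulated data with independent noise on each array, which cannot speak to the third phyA arrays.

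The members and lists were chosen with earlier results of these data known. The genes named follow a rule of extremes in rise, white-light level and spread, neighbouring pairs and threshold neighbours; further members were named after their values were seen, so that all 37 appear. Alternatives were other scalings, thresholds, models and left-out arrays. Promoter motifs were not analysed here.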

Additional observations from a re-analysis of the deposited data

How the results depend on the processing

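The number of genes meeting the rule was 37 and stayed within 1.5 times of that with median centring (40), cyclic loess (28, all among the 37), group medians, every probe set of a gene, the dimmest 40% left out, without replicate 3 of both phyA shade groups (35) and with each array left out in turn (31 to 41). It was 84 with a rise of at least 2, 12 with a rise of at least 3 and 19 with differences under 0.5, by construction of those limits. For phyA strong shade minus phyA shade, 0 members and 0 probe sets were called under every alternative run except without replicate 3 of both phyA shade groups, where 5 members and 874 probe sets were called. Leaving out 1 array at a time gave 0. With the replicate number as a block the count was also 0 members and 0 probe sets. Same-numbered arrays of different groups had correlations of their deviations from -0.58 to 0.32, under 0.1 in 29 of 36 pairs, so the numbers were not taken to pair the samples. The members' median in WT strong shade against white light, 3.31, was 3.44 with median centring, where the median of all probe sets was 0.13, 3.20 with cyclic loess, and 3.14 to 3.36 with an array left out. With an array left out the median of the phyA step lay between 0.00295 and 0.27. The mean rise of a member moved by less than its SD within groups in 736 recomputed values and by more in 4. White-light groups of 2 arrays and dim probe sets limit what these arrays can show, and no depth applies to intensities.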
